A study of Mus musculus with 10 samples.

Results

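Respiratory complex I is the NADH dehydrogenase of mitochondria, and its nuclear-encoded subunits were followed here on hippocampal arrays of inbred mice that differed in open field exploration. Members were all probe sets, the groups of oligonucleotides that measure a transcript, for which the platform annotation gives 1 gene symbol, that symbol being Ndufab1 or Nduf followed by a, b, c, s or v and a digit. This rule found 78 probe sets of 36 genes among 45037 probe sets besides the array's controls, of which 34945 name 1 gene. It takes no account of measured values. All probe sets of a gene were kept, so that 16 genes had 1 probe set and the best covered gene, Ndufs8, had 6.

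Complex I takes electrons from NADH, passes them along a flavin and a chain of iron-sulfur clusters to ubiquinone, and pumps protons across the inner mitochondrial membrane. Its arm in the matrix holds the N module, which oxidises NADH, and the Q module, which reduces ubiquinone, while its membrane arm holds the proton pumps, whose core subunits are encoded by mitochondrial DNA and have no probe set among the members. Accessory subunits surround the core and are needed for assembly and stability, and neurons, which depend on oxidative phosphorylation, are among the cells most affected when the complex fails.

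Whole hippocampus was taken from female Balb c/J mice of an inbred strain, born on the same day, that had been ranked by a composite of several open field measures over repeated sessions. High Exploration mice came from the upper end of that ranking and Low Exploration mice from the lower end (n = 5 arrays each), no treatment or genetic change separated them, testing began in young adults, and the age at which tissue was taken is not given in the sources used here. Total RNA from each sample was labelled with biotin and hybridised to an Affymetrix mouse expression array, and signals are MAS 5.0 intensities, printed below as log2 signal. The question addressed by the comparison is which transcript levels in the hippocampus differ between genetically alike mice of stable high and low activity. Arrays are numbered 1 to 5 within a group in the order of deposition. The sources do not say outright that each array held the RNA of 1 mouse, and where they did not, p-values measure only the spread between these samples.

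All 10 listed marker genes of hippocampal neurons were above the signal filter, and none of the 3 red blood cell markers on the array was. The summed level of the neuron markers (7 of 10 higher in High Exploration) ranged between 14.76 and 15.00 on High Exploration arrays and between 14.20 and 14.70 on Low Exploration arrays (log2), and that of the astrocyte markers (4 of 6 higher) between 15.44 and 16.14 on High Exploration arrays and between 14.61 and 15.34 on Low Exploration arrays, both without overlap. Such sums follow the brightest genes of a list. Gja1, the brightest astrocyte marker, differed by 1.25 (log2, High minus Low Exploration), while Slc1a2 differed by −0.24 and Slc1a3 by −0.16. The neuron marker Slc17a7 differed by −2.11, with at most 8.37 on High Exploration arrays and at least 8.75 on Low Exploration arrays. The summed microglial markers (2 of 5 higher) ranged between 13.21 and 14.96 on High Exploration arrays and between 14.56 and 15.48 on Low Exploration arrays. The ranges also overlapped for the markers of interneurons (2 of 5 on the array higher in High Exploration), oligodendrocytes (4 of 5), endothelium (0 of 4), choroid plexus (1 of 5), red blood cells (0 of 3) and thalamus (1 of 4). The mean signal of each array, trimmed by 2% at either end, lay within 500.0035 to 500.0043 on High Exploration arrays and within 500.0024 to 500.0029 on Low Exploration arrays, so all had been scaled to a common target. The added hybridisation controls averaged 13.43 ± 0.31 on High Exploration arrays and 14.06 ± 0.30 on Low Exploration arrays (log2 signal, mean ± SD over 5 arrays), with overlapping ranges. The poly-A controls ranged between 11.70 and 12.95 on High Exploration arrays and between 13.46 and 14.58 on Low Exploration arrays, without overlap. The 3′ minus 5′ difference of Gapdh, often read as a measure of RNA quality, averaged 4.72 ± 0.48 on High Exploration arrays and 3.72 ± 0.23 on Low Exploration arrays, and that of Actb 5.30 ± 0.58 on High Exploration arrays and 4.97 ± 0.75 on Low Exploration arrays. The part of these controls and markers in the results below was not tested except where a fit with the hybridisation controls is given. In tissue RNA, fewer cells of a type and less RNA per cell cannot be told apart.

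No complex I probe set passed the test between High and Low Exploration. Of the 78 probe sets, 65 of 33 genes had a mean signal above the median of all probe sets and entered the fit, and 0 of the 65 had a limma adjusted p under 0.05, where 51 of 22518 probe sets did (0.226%). The smallest adjusted p of a member was 0.0712, for a dim probe set of Ndufab1 (mean signal 248.1, near the filter of 219.9). At an unadjusted p under 0.05, 21 of the 65 were higher in High Exploration, against 9.57% of all tested, and 3 were lower, against 20.7%. A fit with arrays weighted by their fit gave Low 1 the lowest weight (0.638), High 3 the next (0.704) and High 1 the highest (1.415). With these weights 10 of the 65 passed, 8 of them higher and 2 lower in High Exploration, where 9.81% of all tested probe sets passed. The number of arrays limits the precision of each of these values.

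The complex I probe sets lay mostly on the higher side in High Exploration. The log2 difference, High minus Low Exploration, was above 0 for 54 of 65 tested members, against 37.9% of all tested probe sets, and its median over the members was 0.73, against −0.32 over all. With the hybridisation controls as a covariate the median of the members was −0.13, beside −0.13 over all, and 27 of 65 were above 0. These controls were themselves lower in High Exploration (13.43 ± 0.31 against 14.06 ± 0.30), so group and covariate can be separated only with low precision. No member passed in this fit, and the SEs of the probe sets printed on every array ran from 0.464 to 1.15. A sign with the covariate is therefore uncertain. The value from this fit is given as that with the covariate beside each complex I probe set described below whose difference it turned in sign or moved by more than 1.5 times. Centring each array on its median gave the members a median of 1.27, beside 0.21 over all tested. Equal hybridisation controls gave 1.36 beside 0.31. Both scalings shift all probe sets of an array alike, so the distance of 1.05 from all tested probe sets was bound to stay. Quantile normalisation gave 0.78 beside −0.03 and cyclic loess 0.68 beside −0.04. Of the 18 genes with more than 1 tested probe set, 12 had all of them higher in High Exploration and 6 had probe sets on both sides. Of the 15 genes with 1 tested probe set, 12 were higher and 3 lower.

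**Figure D1:**
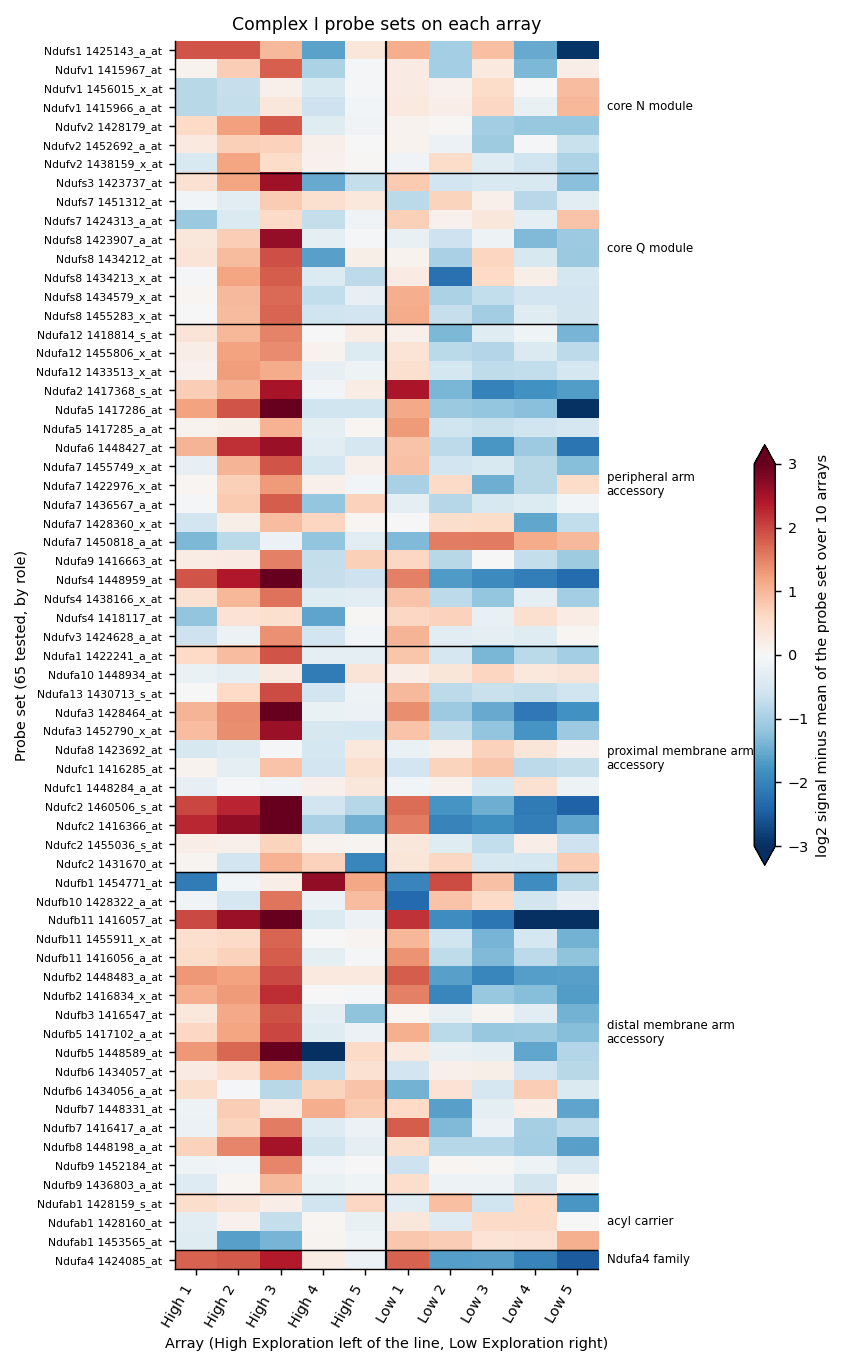
Log2 signal of the 65 tested complex I probe sets (rows, grouped by role) on each array (columns, 5 High Exploration left of the line and 5 Low Exploration right), each row minus its mean over the 10 arrays; colours reach their end at 3 log2 units either way. The columns High 1, High 2, High 3 and Low 1 are red over many rows in which the other 6 arrays are blue, and a few rows, among them Ndufab1 1453565_at and Ndufa7 1450818_a_at, run the other way.

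The groups overlapped for all but 1 of the 65 members. No member had all High Exploration arrays above all Low Exploration arrays, which 2.14% of all tested probe sets did, and 1 had them all below, which 6.78% did. Without Low 1, 23 of the 65 were higher without overlap, against 5.45% of all tested, and 2 were lower without overlap, against 9.41%, while 1 of them, Ndufb2 1448483_a_at, passed the test (0.102% of all tested). The 23 higher ones were all in the top decile of all probe sets by mean log2 signal, where 785 of 4504 were higher without overlap. The same arrays stood high from gene to gene. Low 1 was the highest Low Exploration array for 37 of the 65 (27.7% of all tested), and High 3 was the highest of the 10 arrays for 45 of them (11.3%). For 28 of the 65 the 4 arrays High 1, High 2, High 3 and Low 1 all lay above the other 6, an arrangement noticed in these values and held by 5.89% of all tested probe sets. Of the 47 cell type markers on the array 3 had it, Spink8 among the 10 of hippocampal neurons and Gad1 and Pvalb among the 5 of interneurons. Their part in it was not tested. The median over the tested members was 12.64, 13.05, 13.82, 10.96 and 11.32 on High 1 to High 5, against 12.21, 10.65, 10.64, 10.13 and 9.83 on Low 1 to Low 5. High 4 and High 5 thus lay under Low 1 and the other High Exploration arrays, and above Low 2 to Low 5.

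Many of the members gave bright signals. Of the 78, 40 were in the top decile of all probe sets by mean log2 signal, and 35 of these 40 were above 0 with a median of 0.99. All 4504 probe sets of that decile had a median of 0.43, and 65.6% of them were above 0. The 4 arrays named above lay over the other 6 in 26 of the 40 members in the top decile and in 692 of all 4504. Low 1 was the highest Low Exploration array for 31 of the 40 (33.3% of all 4504). High 3 was the highest of the 10 arrays for 29 of the 40 (20.5% of all 4504). Of the 25 tested members in the lower deciles, 19 were above 0 with a median of 0.69, against −0.48 over all tested probe sets there. In decile 9, which held 14 of these members, their median was 0.68, against −0.17 over all probe sets of that decile. The ranking by signal was made on these same arrays.

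**Figure D2:**
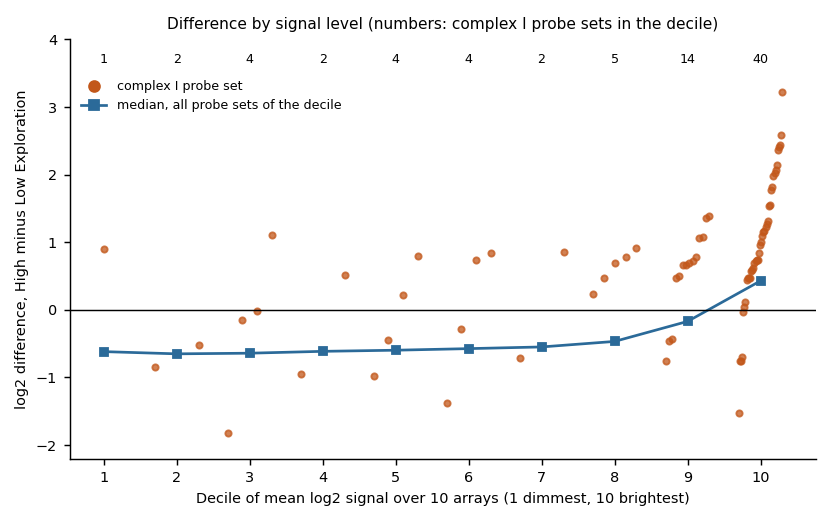
Log2 difference, High minus Low Exploration, of each of the 78 complex I probe sets (orange points, spread sideways within a decile) by decile of mean log2 signal, with the median of all probe sets of the decile (blue squares); the numbers on top count the members. In decile 10 the members' median was 0.99 and that of all probe sets 0.43, and with the hybridisation controls as a covariate the members' overall median was −0.13.

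Probe sets also differ in how selectively they bind. The suffix _a_at marks probe sets shared by transcripts of 1 gene, _s_at those shared by several transcripts and _x_at those with probes that resemble other sequences. All 6 tested members ending in _s_at and 13 of 14 ending in _x_at were higher in High Exploration, beside 15 of 19 ending in _a_at. Over all tested probe sets the share higher was 55.5% for _s_at, 50.7% for _x_at and 47.7% for _a_at. Of the 26 with the plain suffix _at, which bind 1 transcript by design, 20 were higher, with a median of 0.74, where all 17315 such probe sets had −0.42 and 34.1% were higher. Most members of each of the 4 kinds were thus on the higher side, while with the hybridisation controls as a covariate 27 of the 65 were.

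**Figure D3:**
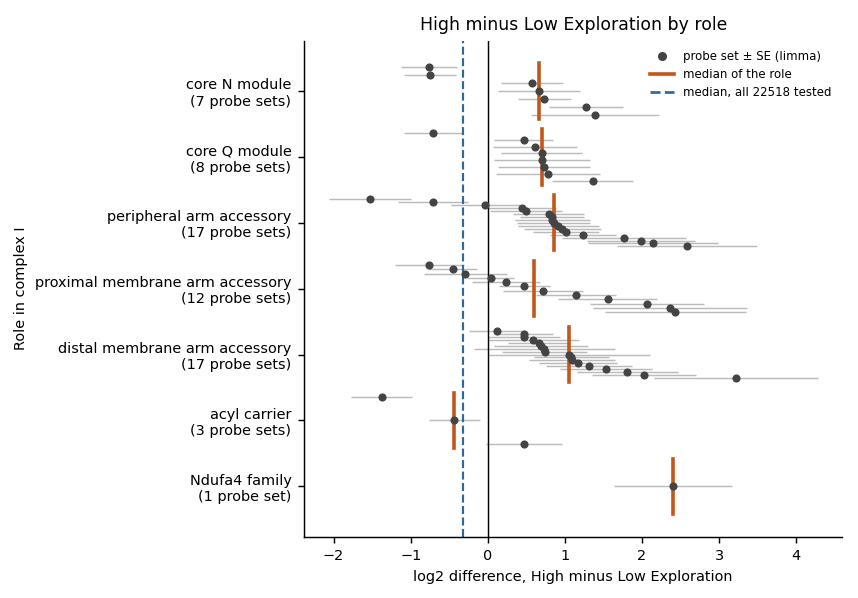
Log2 difference, High minus Low Exploration, of each tested complex I probe set (point, with the standard error of limma) by role, with the median of the role (orange) and of all 22518 tested probe sets (blue, dashed, −0.32). All 17 distal membrane arm probe sets lie right of 0, the acyl carrier probe sets lie on both sides, and no point passed the test; with the hybridisation controls as a covariate 27 of 65 were right of 0.

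The N module binds NADH. Its 3 core genes had 7 tested probe sets, 5 of them higher in High Exploration, with a median of 0.66. Ndufv1, which carries the flavin that accepts electrons from NADH, read 14.94, 15.08, 15.92, 15.31 and 15.71 on High 1 to High 5 with the probe set of highest mean signal, 1456015_x_at, against 16.02, 15.91, 16.31, 15.78 and 16.70 on Low 1 to Low 5. All High Exploration arrays except High 3 lay under all Low Exploration arrays, and High 3 lay among them. The difference was −0.75 (SE 0.334, adjusted p = 0.153) and −0.26 with the covariate. Another probe set, 1415966_a_at, gave 14.70, 14.80, 15.86, 14.90 and 15.44 in High Exploration, against 15.82, 15.71, 16.15, 15.30 and 16.52 in Low Exploration, a difference of −0.76 (SE 0.361, adjusted p = 0.174) and of −0.32 with the covariate. As with the first, High 3 was the highest High Exploration array and Low 5 the highest of all, and the groups overlapped through High 3 and High 5. The remaining one, 1415967_at, differed by 0.66, and by 0.19 with the covariate, so that the probe sets of Ndufv1 lay on both sides of 0.

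Ndufs1, which carries several of the iron-sulfur clusters of the chain, read 11.15, 11.15, 10.23, 7.66 and 9.60 in High Exploration, against 10.35, 8.25, 10.15, 7.74 and 6.33 in Low Exploration (1425143_a_at). Low 1 and Low 3 stood with the higher High Exploration arrays and High 4 with the lower Low Exploration arrays. The difference of 1.39 had an SE of 0.834 (adjusted p = 0.265), and it was −1.06 with the covariate. Ndufv2, which holds a further iron-sulfur cluster next to the flavin, read 14.25, 15.91, 15.26, 14.84 and 14.75 in High Exploration with 1438159_x_at, against 14.60, 15.27, 14.36, 14.13 and 13.79 in Low Exploration. The groups overlapped through High 1 and Low 2, and the difference of 0.57 (SE 0.400, adjusted p = 0.333) became −0.03 with cyclic loess and −0.16 with the covariate. Its other probe sets differed by 0.73 and 1.28, and by 0.18 and 0.07 with the covariate.

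The Q module passes electrons to ubiquinone. Its 3 core genes with a member had 8 tested probe sets, 7 of them higher in High Exploration, with a median of 0.70. Ndufs3, a core subunit without a cluster of its own, read 10.03, 10.77, 12.14, 8.07 and 8.88 in High Exploration, against 10.37, 9.00, 9.14, 9.12 and 8.34 in Low Exploration (1423737_at, difference 0.78, SE 0.677, adjusted p = 0.434, and −1.02 with the covariate). High 3 was highest and High 4 lowest of all 10, so that the High Exploration arrays enclosed the others. Ndufs8, which carries clusters in the middle of the chain, read 13.48, 14.42, 15.22, 12.87 and 12.90 in High Exploration, against 14.59, 12.79, 12.43, 13.10 and 12.91 in Low Exploration (1455283_x_at, difference 0.61, SE 0.540, adjusted p = 0.444, and −0.57 with the covariate). Here Low 1 lay above 4 of the 5 High Exploration arrays. The 5 tested probe sets of Ndufs8 were all higher in High Exploration, by 0.61 to 1.36, and with the covariate they differed by −0.57 to 0.48.

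Ndufs7, which holds the last cluster before ubiquinone, lay on the other side of 0 with its probe set of highest mean signal, 1424313_a_at. It read 12.80, 13.47, 14.49, 13.19 and 13.81 in High Exploration, against 14.62, 14.03, 14.25, 13.63 and 14.76 in Low Exploration. High 1, High 2 and High 4 lay under every Low Exploration array, and High 3 and High 5 lay among them. The difference was −0.70 (SE 0.388, adjusted p = 0.228), while a second probe set, 1451312_at, differed by 0.46.

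The accessory subunits of the peripheral arm had 17 tested probe sets, 14 of them higher in High Exploration, with a median of 0.85. Ndufs4, a late-joining subunit whose loss in mice gives a Leigh-like brain disease, read 13.07, 13.60, 14.67, 10.49 and 10.57 in High Exploration with 1448959_at, against 12.69, 9.49, 9.28, 9.11 and 8.88 in Low Exploration. High 1 to High 3 and Low 1 lay well above the other 6, and all High Exploration arrays lay above Low 2 to Low 5. The difference was 2.59 (SE 0.909, a 6.01-fold ratio, adjusted p = 0.0966), and it was −0.16 with the covariate. A second probe set of the gene, 1418117_at, read 7.04, 8.66, 8.71, 6.65 and 8.27 in High Exploration, against 8.86, 8.92, 7.99, 8.70 and 8.44 in Low Exploration, a difference of −0.72 (SE 0.453, adjusted p = 0.289) and of −1.16 with the covariate. It did not share the split of the arrays seen with the first. The third tested probe set, 1438166_x_at, did share that split. It differed by 0.97 (SE 0.497, adjusted p = 0.203), and by −0.25 with the covariate.

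Ndufa5, a small subunit of the same arm, read 12.27, 12.96, 14.52, 10.48 and 10.47 in High Exploration with 1417286_at, against 12.21, 9.96, 9.92, 9.81 and 8.10 in Low Exploration. The same 4 arrays were high, and the overlap rested on Low 1. The difference was 2.14 (SE 0.846, adjusted p = 0.120), and 0.44 with 1417285_a_at, while with the covariate these were −0.58 and −0.21. Ndufa6, of the LYR family that binds the acyl carrier, differed by 1.98 (adjusted p = 0.0980), with High Exploration between 11.32 and 14.41 and Low Exploration between 9.62 and 12.67, and by −0.28 with the covariate. Ndufa2, of thioredoxin-like fold, differed by 1.77, the 3 tested probe sets of Ndufa12 by 0.83 to 1.23 and Ndufa9, of dehydrogenase-like fold, by 0.79. With the covariate these were 0.04 for Ndufa2, −0.04 to 0.39 for Ndufa12 and 0.16 for Ndufa9. Ndufv3 differed by −0.03, and by −0.36 with the covariate.

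Ndufa7, a further peripheral subunit, had the probe set with the lowest difference of all tested members. 1450818_a_at read 10.44, 10.98, 11.62, 10.60 and 11.48 in High Exploration, against 10.46, 13.32, 13.35, 12.89 and 12.75 in Low Exploration. Low 2 to Low 5 lay above all High Exploration arrays and Low 1 lay among these. The difference was −1.53 (SE 0.536, a ratio of 0.347, adjusted p = 0.0964), −2.05 without Low 1 and −0.88 with the covariate. The other 4 tested probe sets of Ndufa7 differed by 0.49 to 0.91, and by −0.25 to 0.94 with the covariate. The highest of them, 1455749_x_at, read 8.47, 9.73, 10.61, 8.19 and 8.88 in High Exploration, against 9.59, 8.14, 8.26, 7.88 and 7.45 in Low Exploration (SE 0.526, adjusted p = 0.248, and −0.25 with the covariate). On Low 1 it was high where 1450818_a_at was low.

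**Figure D4:**
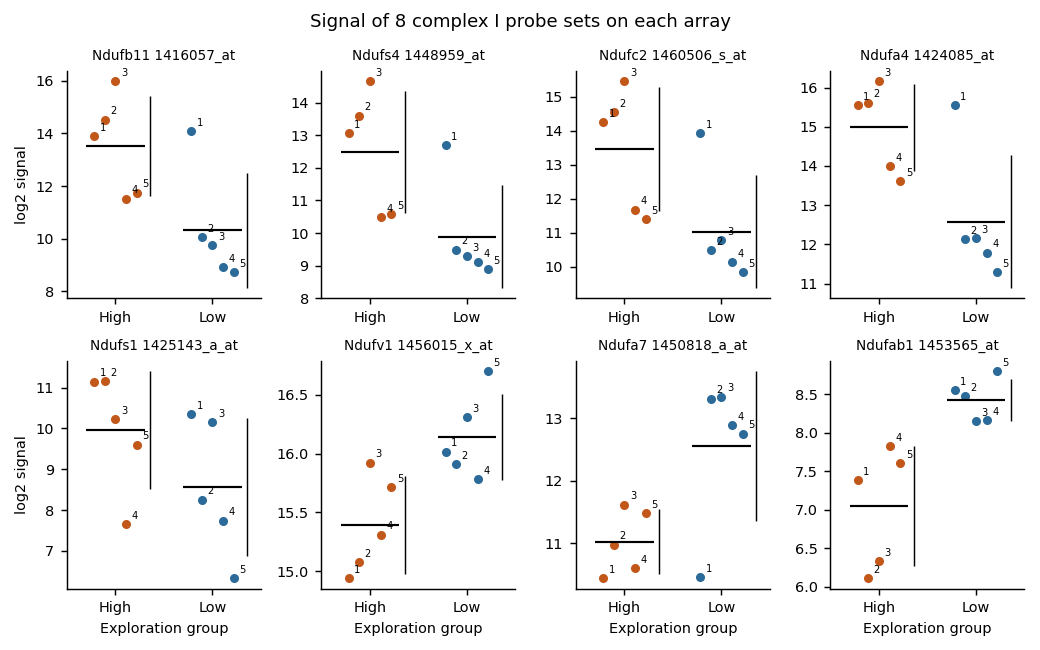
Log2 signal of 8 complex I probe sets on each array, High Exploration (orange) left of Low Exploration (blue); digits give the replicate, horizontal lines the group mean and vertical lines 1 SD (n = 5 each). In the upper row and for Ndufa7 1450818_a_at, Low 1 lies with or among High Exploration arrays and apart from Low 2 to Low 5, while for Ndufab1 1453565_at the groups do not overlap.

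The accessory subunits of the proximal membrane arm had 12 tested probe sets, 9 of them higher in High Exploration, with a median of 0.60. Ndufc2 read 14.26, 14.54, 15.46, 11.67 and 11.40 in High Exploration with 1460506_s_at, against 13.93, 10.48, 10.78, 10.13 and 9.83 in Low Exploration (difference 2.43, SE 0.914, a 5.41-fold ratio, adjusted p = 0.109, and −0.42 with the covariate). 1416366_at gave 12.66, 13.05, 13.82, 9.42 and 8.94 in High Exploration, against 11.93, 8.40, 8.56, 8.33 and 8.82 in Low Exploration (difference 2.37, SE 0.998, adjusted p = 0.137, and −0.52 with the covariate). Both set High 1 to High 3 and Low 1 above the other 6 arrays, and without Low 1 the groups would not overlap. The gene's other probe sets did not share this split. 1455036_s_at ranged between 15.95 and 16.52 in High Exploration and between 15.12 and 16.21 in Low Exploration (difference 0.48, adjusted p = 0.333). 1431670_at read 7.73, 7.07, 8.69, 8.34 and 5.70 in High Exploration, against 8.02, 8.27, 7.18, 7.11 and 8.40 in Low Exploration, with a difference of −0.29 (SE 0.543, adjusted p = 0.732) that was above 0 under each of the 4 other scalings. With the covariate these were 0.11 and −0.65.

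Ndufa3, a small membrane subunit, read 13.18, 13.57, 15.23, 11.96 and 11.98 in High Exploration with 1428464_at, against 13.55, 11.07, 10.64, 10.00 and 10.34 in Low Exploration (difference 2.07, SE 0.744, adjusted p = 0.101, and 0.16 with the covariate). Low 1 alone of its group reached the High Exploration arrays. A second probe set of Ndufa3 differed by 1.56, and Ndufa1, an X-linked subunit needed for assembly, by 1.14. Ndufa13, also known as GRIM-19, differed by 0.72, the 2 tested probe sets of Ndufc1 by 0.04 and 0.23, and Ndufa8, a subunit on the side of the intermembrane space, by −0.46. With the covariate the second probe set of Ndufa3 differed by −0.07, Ndufa1 by −0.09, Ndufa13 by −0.20, Ndufc1 by 0.20 and 0.05 and Ndufa8 by −0.17. Ndufa10, which resembles nucleoside kinases, read 9.08, 9.01, 9.54, 7.19 and 9.65 in High Exploration with 1448934_at, against 9.48, 9.63, 9.91, 9.59 and 9.65 in Low Exploration. High 4 was far below every other array, the rest overlapped, and the difference was −0.76 (SE 0.448, adjusted p = 0.258).

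In the distal membrane arm all 17 tested probe sets were on the higher side, with a median of 1.06, while with the covariate 10 of the 17 were, with a median of 0.06. Ndufb11, an X-linked subunit of this arm, had the highest difference of all tested members. 1416057_at read 13.89, 14.51, 15.99, 11.51 and 11.74 in High Exploration, against 14.09, 10.06, 9.75, 8.92 and 8.73 in Low Exploration. Low 1 lay above High 1, High 4 and High 5, and Low 2 to Low 5 lay under all High Exploration arrays. The difference was 3.22 (SE 1.06, a 9.32-fold ratio, adjusted p = 0.0871), 4.17 without Low 1 and 0.04 with the covariate. The other probe sets of Ndufb11, 1416056_a_at and 1455911_x_at, differed by 1.09 and 1.17 (−0.15 and 0.06 with the covariate), and Low 1 was again far above Low 2 to Low 5. Ndufb2 differed by 2.02 with 1448483_a_at and by 1.81 with 1416834_x_at (adjusted p = 0.0887 and 0.102), and by 0.54 and 0.24 with the covariate. With 1448483_a_at its High Exploration arrays lay between 14.97 and 16.65 and Low 2 to Low 5 between 12.72 and 13.06, with Low 1 at 16.51.

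Ndufb8 differed by 1.53, the probe sets of Ndufb5 by 1.06 and 1.31, those of Ndufb7 by 0.59 and 1.08, and those of Ndufb6 by 0.47 and 0.66. Ndufb9, another LYR protein, differed by 0.12 and 0.47 and Ndufb3 by 0.74. Ndufb10 and Ndufb1 differed by 0.69 and 0.73, with both groups spread over more than the difference. With the covariate Ndufb8 differed by −0.12, Ndufb5 by −0.87 and −0.12, Ndufb7 by −0.51 and 0.73, Ndufb6 by 1.07 and 0.18, Ndufb9 by −0.13 and 0.31, Ndufb3 by −0.87, Ndufb10 by 1.41 and Ndufb1 by 1.80. In Ndufb6 1434056_a_at, Ndufb9 1452184_at, Ndufb1 and Ndufb10, Low 1 was the lowest array of Low Exploration, in contrast to most of the distal arm.

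**Figure D5:**
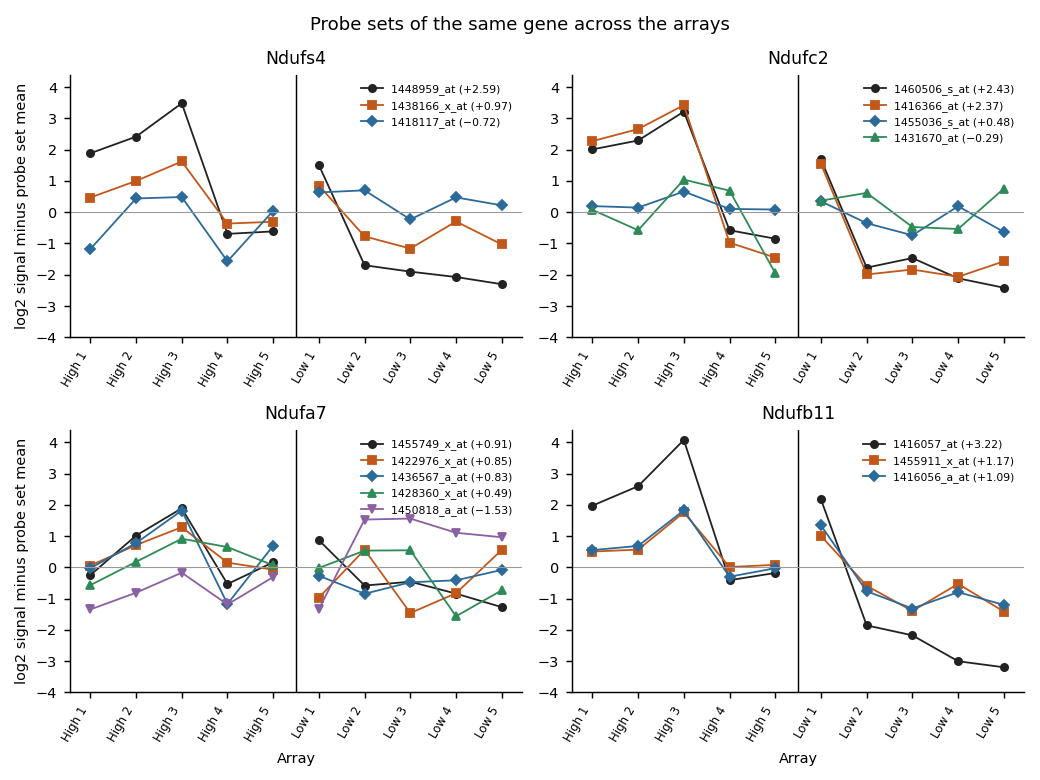
Log2 signal, minus the mean of the probe set over the 10 arrays, of all tested probe sets of Ndufs4, Ndufc2, Ndufa7 and Ndufb11 on each array (High Exploration left of the line, Low Exploration right; lines join arrays as a guide to the eye only); the legend gives each log2 difference, High minus Low Exploration. The 3 probe sets of Ndufb11 move alike with unequal size, while Ndufs4, Ndufc2 and Ndufa7 each have probe sets with differences of opposite sign. Those on the lower side had mean signals of 333.0 (Ndufs4, others 5641 and 5896), 232.8 (Ndufc2, others 3596 to 62020) and 4752 (Ndufa7, others 255.3 to 944.1).

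Ndufab1, the mitochondrial acyl carrier protein, which also serves fatty acid synthesis in mitochondria, had 3 tested probe sets. 1453565_at read 7.38, 6.11, 6.33, 7.82 and 7.60 in High Exploration, against 8.55, 8.47, 8.14, 8.16 and 8.80 in Low Exploration, and these groups did not overlap. The difference was −1.37 (SE 0.397, a ratio of 0.386, adjusted p = 0.0712), and −0.62 with the covariate. The mean signal of 1453565_at, 248.1, was near the filter of 219.9. The one of highest mean signal, 1428160_at, read 8.96, 9.40, 8.57, 9.33 and 9.04 in High Exploration, against 9.62, 8.90, 9.84, 9.84 and 9.27 in Low Exploration. These overlapped, and the difference of −0.43 (SE 0.327, adjusted p = 0.369) was above 0 when arrays were centred on the median or set to equal hybridisation controls. 1428159_s_at differed by 0.47, and by −0.34 with the covariate.

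Ndufa4, long counted to complex I and now assigned to cytochrome c oxidase, read 15.54, 15.61, 16.17, 14.00 and 13.61 in High Exploration (1424085_at), against 15.55, 12.14, 12.16, 11.79 and 11.29 in Low Exploration. Low 1 stood with High 1 and High 2, and the other Low Exploration arrays lay under all of High Exploration. The difference was 2.40 (SE 0.768, a 5.29-fold ratio, adjusted p = 0.0823), and 0.11 with the covariate. Its relative Ndufa4l2, known as a hypoxia-induced gene, was under the signal filter and not tested. It read 6.85, 6.29, 6.78, 7.18 and 7.44 in High Exploration, against 8.25, 6.87, 7.99, 3.79 and 5.09 in Low Exploration, a difference of 0.51 within the spread of the Low Exploration arrays.

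The 13 members under the filter had mean signals between 36.75 and 207.6, and 5 of them were higher and 8 lower in High Exploration, by −1.82 to 1.10. They include the single members of Ndufs5 and Ndufb4 and further probe sets of Ndufa10, Ndufa12, Ndufa3, Ndufb2, Ndufb8, Ndufb9, Ndufs4, Ndufs8 and Ndufab1. For Ndufa12 1425919_at the groups did not overlap, with High Exploration between 4.01 and 6.37 and Low Exploration between 6.44 and 7.80.

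The nuclear genes of complex I are known targets of the nuclear respiratory factors NRF1 and GABP, an ETS factor, of YY1 and of estrogen-related receptors, and their promoters are shown because many members moved together across the arrays. RefSeq promoter windows (build GRCm38.p6, 250 bases before the start to 50 after) matched 32 of the 36 genes in 34 windows. The NRF1 core GCGCATGC, searched on both strands, was in 2 of the 34 windows (2.71% of all 32851 windows), those of Ndufa6 and Ndufa8. The ETS core CCGGAAG was in 4 (8.86% of all) and the receptor site AAGGTCA in 3 (4.72% of all). The YY1 core AAGATGG was in 6 (6.34% of all), those of Ndufa3, Ndufa9, Ndufb8, Ndufc1, Ndufs4 and Ndufs7, in each case on the strand of the gene and with its first base 23 to 39 bases into the transcript. No matches overlapped in these windows. A match is no evidence of binding.

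The last 200 bases before the start follow for 5 genes, with any match to these motifs in capitals. Ndufa6 and Ndufa8 hold the same NRF1 letters and differed by 1.98 and −0.46 between the groups (−0.28 and −0.17 with the covariate), Ndufb2 and Ndufs3 hold a receptor site and an ETS core, and Ndufb11, with the highest difference, holds none of the 4.
Ndufa6, chr15:82354292-82354491, minus strand: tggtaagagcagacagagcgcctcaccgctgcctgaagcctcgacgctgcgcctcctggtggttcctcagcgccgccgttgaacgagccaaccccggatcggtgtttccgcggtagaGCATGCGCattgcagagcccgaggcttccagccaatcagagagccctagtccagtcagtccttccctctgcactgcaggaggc
Ndufa8, chr2:36049339-36049538, minus strand: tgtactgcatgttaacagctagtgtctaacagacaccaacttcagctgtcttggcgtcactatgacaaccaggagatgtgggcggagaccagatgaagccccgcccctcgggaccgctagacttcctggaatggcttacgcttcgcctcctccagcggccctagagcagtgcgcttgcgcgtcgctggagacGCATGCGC
Ndufb2, chr6:39592365-39592564, plus strand: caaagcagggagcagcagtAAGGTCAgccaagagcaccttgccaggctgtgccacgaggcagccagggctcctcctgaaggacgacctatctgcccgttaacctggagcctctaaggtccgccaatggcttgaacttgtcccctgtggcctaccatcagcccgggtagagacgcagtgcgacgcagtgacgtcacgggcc
Ndufs3, chr2:90904722-90904921, minus strand: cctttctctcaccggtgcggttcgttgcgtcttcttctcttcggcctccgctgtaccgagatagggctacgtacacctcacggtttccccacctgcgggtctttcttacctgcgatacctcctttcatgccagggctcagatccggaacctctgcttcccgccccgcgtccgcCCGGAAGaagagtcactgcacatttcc
Ndufb11, chrX:20617620-20617819, minus strand: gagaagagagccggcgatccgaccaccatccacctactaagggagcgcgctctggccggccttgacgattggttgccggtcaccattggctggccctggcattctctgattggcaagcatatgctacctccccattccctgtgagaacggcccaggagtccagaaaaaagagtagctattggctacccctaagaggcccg

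Genes that act with the complex were read from 3 lists. Over all tested probe sets 37.9% were higher in High Exploration. At an unadjusted p under 0.05 (limma), 9.57% of all tested were higher and 20.7% lower. The fit with the covariate was not read for these lists. Of the complex I assembly factors, which build the enzyme and leave it, 19 probe sets were tested and 7 were higher in High Exploration, with a median of −0.68. None passed limma's adjusted threshold, and at an unadjusted p under 0.05 there were 3 higher and 4 lower. Tmem126b differed by −1.32 (adjusted p = 0.0693) and Ndufaf5 by 1.21 (adjusted p = 0.161), and Ndufaf4 by 0.47 and 1.10. Regulators of mitochondrial biogenesis, the factors named above among them, had 26 tested probe sets, of which 14 were higher and none passed, with a median of 0.04 and, unadjusted, 1 higher and 3 lower. Ppargc1b, a coactivator of these factors, differed by −2.14 (adjusted p = 0.0555), while the tested probe sets of its relative Ppargc1a differed by −0.17 to 0.76. Subunits of complexes II to V had 78 tested probe sets, 67 of them higher in High Exploration, with a median of 0.84. None passed the test, and unadjusted there were 26 higher and 2 lower. The 4 arrays High 1 to High 3 and Low 1 lay above the other 6 in 37 of the 78, against 5.89% of all tested.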

How the data were processed

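RNA of whole hippocampus was measured on 10 arrays, 5 of each group, grouped by the sample titles. Per the methods, the authors summarised scans to MAS 5.0 signal intensities, which were deposited on a linear scale without quantile normalisation, and the values show a scaling of each array to a trimmed mean of 500.004 or close to it. Columns are named for the RNA extraction in the labels, and columns or Trizol in the methods. Whether the labelling used 1 round of amplification or more differs between the labels and the methods. Gene symbols came from the platform annotation, and 932 probe sets with several symbols were named for no gene. Such a scaling fixes the mean and leaves dim and bright probe sets free to shift against each other.

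Log2 intensities of 22518 probe sets with a mean intensity above 219.9, the median over all, were fitted by group with limma 3.58.1 in R 4.3.3 (lmFit and eBayes), with Benjamini-Hochberg adjustment over all of them and a threshold of 0.05. No 2 arrays held the same values, and correlations between arrays lay between 0.701 and 0.837. Detection calls were not used. The script was tested on simulated data. Alternatives were 4 other scalings, a covariate, 3 other filters, a pseudocount, array weights, choices of probe set and leaving out each array. The filter on mean log2 signal was added after seeing the data. The members and the lists of roles, assembly factors, regulators and cell type markers were chosen with earlier results of these data known. Values on every array are given for the brightest probe set of each core subunit, Ndufab1, Ndufa4 and Ndufa4l2, for the 6 highest and 4 lowest differences among the remaining members, and for both extremes of the 3 genes whose probe sets differ most. Replicate numbers follow the order of deposition and pair no samples. Motifs were searched in RefSeq promoter windows. The series' own design text describes another experiment and was not used.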

Additional observations from a re-analysis of the deposited data

Results flagged for a closer look

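In groups of 5 arrays a highest or lowest value was picked out when its gap to the next array exceeded 0.71 of the group's range, a limit that chance passes in about 1 in 20 groups. The 46 groups checked were the same arrays read through 22 named probe sets and the complex I median. Many of these probe sets were named for extreme differences, so the count cannot be set against that rate. Of the 46, 7 were picked out, and 6 of these 7 concerned Low 1. Low 1 stood above the other Low Exploration arrays for Ndufa4 1424085_at at 15.55 (next array 12.16), for Ndufb11 1416057_at at 14.09 (next 10.06), for Ndufs4 1448959_at at 12.69 (next 9.49), for Ndufc2 1460506_s_at at 13.93 (next 10.78) and for Ndufc2 1416366_at at 11.93 (next 8.82). It stood below them for Ndufa7 1450818_a_at at 10.46 (next 12.75). High 4 stood below the other High Exploration arrays for Ndufa10 1448934_at at 7.19 (next 9.01). Over all 65 tested complex I probe sets Low 1 stood apart on the high side in 14. The share over all tested probe sets was not counted, so this cannot be called particular to complex I. What sets Low 1 apart was not tested. Its hybridisation controls (13.74), poly-A controls (14.22) and Gapdh 3′ minus 5′ difference (3.83) lay within the range of the other Low Exploration arrays or, for the hybridisation controls, just under it, while its Actb 3′ minus 5′ difference (4.28) was the lowest of Low Exploration, where the others lay between 4.44 and 5.98.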

How the results depend on the processing

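The count of complex I probe sets past the threshold was 0 under each setting except array weights (10) and without Low 1 (1), and leaving out arrays gave 0 to 1. The median log2 difference of complex I kept its sign except with the hybridisation controls as a covariate (−0.13). Leaving out an array gave 0.49 (without High 3) to 0.97 (without Low 1). The members whose groups do not overlap numbered 1 (1.54%, where 8.93% of all tested probe sets did not), 5 with median centring (7.69%, all 8.57%), 3 with quantile normalisation (4.62%, all 5.91%), 2 with equal hybridisation controls (3.08%, all 7.19%), with cyclic loess (3.08%, all 6.04%) and without a filter (2.56%, all 6.01%), and 0 with 1 probe set per gene. Without Low 1 there were 25 (38.5%, all 14.9%). Of these, 23 were higher and in the top decile of signal, where 785 of all 4504 were higher without overlap. Without High 4 there were 6 (9.23%, all 11.6%). Without High 3 or High 5 there were 2 (3.08%) and without any other array 1 (1.54%), where these settings gave 9.45% to 14.9% over all tested probe sets.

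Of 420 values of the 21 named and tested probe sets, 17 turned in sign, 7 newly passed the threshold (with array weights) and 396 kept both. With the covariate, 9 turned: Ndufa5 1417286_at (−0.58), Ndufa7 1455749_x_at (−0.25), Ndufc2 1416366_at (−0.52), Ndufc2 1460506_s_at (−0.42), Ndufs1 1425143_a_at (−1.06), Ndufs3 1423737_at (−1.02), Ndufs4 1448959_at (−0.16), Ndufs8 1455283_x_at (−0.57) and Ndufv2 1438159_x_at (−0.16). None of these 9 passed the threshold with the covariate. Ndufv2 1438159_x_at also turned with cyclic loess (−0.030). Ndufab1 1428160_at turned with median centring (0.10) and equal hybridisation controls (0.19). Ndufc2 1431670_at turned with median centring (0.25), quantile normalisation (0.22), equal hybridisation controls (0.34) and cyclic loess (0.28), and leaving out an array gave it −0.59 (without High 3) to 0.16 (without High 5). The cause was not tested. Over all probe sets the 51 past the threshold became 408 with the pseudocount, 2208 with array weights, 32 without a filter, 28 with a mean signal of at least 100, 3 with the added filter, with median centring and with cyclic loess, 2 with quantile normalisation, 0 with the covariate or equal hybridisation controls, and 0 to 1019 when an array was left out. No paired analysis was possible because the labels give no replicate number shared between the groups. Background levels and detection calls were not used here, so low signals, which go down to 0.262, cannot be told apart from background.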

Other observations

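The platform annotation gives 10 further probe sets the symbol of a complex I gene together with another, and these were kept out of the counts above. Both probe sets for Ndufb4 and its copies Ndufb4b and Ndufb4c showed the arrangement of arrays described for many members. 1428075_at read 13.94, 14.90, 15.24, 12.13 and 12.04 in High Exploration, against 13.56, 11.12, 10.52, 11.36 and 10.18 in Low Exploration, and differed by 2.30. 1428076_s_at differed by 2.30 as well. The probe set for Ndufs6 and Ndufs6b differed by 0.67, and the one for Ndufab1 and its pseudogene by 0.58, on the other side of 0 from Ndufab1 1453565_at. The one for Ndufs5 and its pseudogene differed by 0.11 and the one for Ndufb2 and Adck2 by −0.62. Those for Ndufa13 and Yjefn3 differed by −0.13 (1452641_at) and, under the filter, by −0.20 (1439903_at). For Ndufa11 and Ndufa11b, 1429708_at differed by 1.24 and 1444154_at by −2.28. It read 8.48, 5.10, 7.78, 6.75 and 5.08 in High Exploration, against 9.64, 8.87, 8.73, 8.35 and 8.96 in Low Exploration, so that only High 1 reached into the Low Exploration range.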
